A study of Mus musculus with 11 samples.

Results

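The genes described here are 9 genes of iron handling, chosen by name for their known roles, with earlier results of these data known: the iron carrier transferrin (Trf), the transferrin receptor (Tfrc), the endosomal iron transporter Slc11a2, the ferritin subunits Fth1 and Ftl1, the iron exporter Slc40a1, the copper ferroxidase Cp, the haem oxygenase Hmox1 and the iron sensor Ireb2. They are 9 of the 35584 genes in the deposited table of scaled estimated reads. All 9 passed the minimum on low values that left 13884 genes for testing. PolyA RNA of whole hearts was sequenced in 11 libraries from male mice of 8 to 12 weeks. The cTMs Depleted group (n = 3) came from CD169-DTR mice, which carry the receptor for diphtheria toxin under the gene of CD169 (Siglec1), a surface protein of resident macrophages. These mice were given toxin at 0.01 µg per g of body weight, 3 times a week for 3 weeks, and are described as depleted for 21 days. The WT group (n = 3) was given the same toxin and serves as the control. The Mertk-KO group (n = 2) lacks Mertk, a receptor with which macrophages take up dying cells and debris, and the LxRαβ DKO group (n = 3) lacks both liver X receptors, the sterol sensors Nr1h3 and Nr1h2. The labels do not say whether the last pair of groups was given toxin. They also do not say that each library came from its own mouse, so the p-values below measure the spread between libraries, which may be technical.

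Iron travels in plasma bound to transferrin and enters cells when the loaded protein binds its receptor and is taken into endosomes, from which Slc11a2 moves the iron into the cytosol. Iron that is not used is stored inside ferritin, a shell of heavy (Fth1) and light (Ftl1) subunits, or leaves through Slc40a1 (ferroportin), helped by ferroxidases such as ceruloplasmin (Cp) and held back by the peptide hepcidin (Hamp). Hmox1 opens the haem ring and frees its iron, a step for which macrophages that clear red cells are known. Cells sense iron through the iron regulatory proteins, Ireb2 and Aco1, which bind hairpins called iron-responsive elements when iron is scarce. Binding in a 5′ UTR blocks translation, and binding in the 3′ UTR of Tfrc protects the mRNA from decay, so for Tfrc an mRNA level can follow this control while for ferritin and ferroportin the mRNA level alone does not show it.

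Hairpins of the form searched for are printed below, and the lack of a match does not show that an mRNA escapes this control. A search for a bulged C, 5 paired bases and the loop CAGTG followed by A, C or T found them in 4 of the 9 genes, and in 222 of 21877 coding genes (1.01%). Each line gives 30 bases of the transcript from GENCODE's transcript sequences on GRCm38, 5′ to 3′ on the gene's own strand, with the bulged C and the 6 bases of the loop in capitals. The Fth1 element lies in the 5′ UTR at chr19:9982732-9982761 on the plus strand, the Ftl1 element in the 5′ UTR at chr7:45459778-45459807 on the minus strand and the Slc40a1 element in the 5′ UTR at chr1:45925464-45925493 on the minus strand. The 4 Tfrc matches all lie in its 3′ UTR on the plus strand, starting at chr16:32631219-32631248 and ending at chr16:32631710-32631739. Their letters A to D give only their 5′ to 3′ order here, and Tfrc elements of another form would have been missed.
Fth1: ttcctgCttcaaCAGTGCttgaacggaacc
Ftl1: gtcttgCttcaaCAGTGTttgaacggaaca
Slc40a1: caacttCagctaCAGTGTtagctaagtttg
Tfrc A: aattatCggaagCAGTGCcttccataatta
Tfrc B: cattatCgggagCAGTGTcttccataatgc
Tfrc C: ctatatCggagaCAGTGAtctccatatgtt
Tfrc D: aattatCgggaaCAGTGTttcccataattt
Trf, Slc11a2, Cp, Hmox1 and Ireb2 held no match to these letters in the annotated transcripts, which says nothing about elements of another form. RefSeq promoter windows of 300 bases were at hand for 5 of the 9 genes (Cp, Ftl1, Ireb2, Tfrc and Fth1). The core of the hypoxia response element, ACGTG on either strand, was found in the Tfrc window and in 19.6% of all windows. The antioxidant response element core, TGACNNNGC on either strand (12.4% of all windows), was found in none of these 5.

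Per transcript length, ferritin stood far above the other genes. On the TPM scale of the second deposited table, a level per transcript length within a library, Fth1 ranged from 1561 to 1895 with a median of 1645 and held rank 44 of 33318 genes by its mean. Ftl1 ranged from 241 to 344 TPM with a median of 274 and held rank 297. The heavy and light ranges did not overlap, and the ratio of Fth1 to Ftl1 TPM ran from 4.84 in cTMs Depleted 1 to 7.25 in LxRαβ DKO 1. Below ferritin came Cp (25.9 to 41.7 TPM, median 31.2), Tfrc (11.1 to 51.0, median 26.8) and Trf (6.77 to 40.0, median 21.4). Slc11a2 (8.85 to 15.8, median 13.2), Slc40a1 (7.48 to 12.9, median 9.73), Ireb2 (5.36 to 10.4, median 9.25) and Hmox1 (3.11 to 8.13, median 5.64) were the lowest. From Cp downward, the range of each gene overlapped that of its neighbour in this order, so only the places of the ferritin genes are set beyond the spread. Copies of the ferritin genes could take few reads: the highest of the other ferritin-family rows, Ftl1-ps1, reached 9.64 normalised counts in any library.

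The libraries held 10938600 to 20722295 estimated reads. In what follows a normalised count is the estimated reads of a gene scaled by the authors to a common library size, and 3 reads correspond to 2.12 to 4.22 normalised counts, a floor that covers counting error only. Siglec1 stood at 53.4 to 64.3 normalised counts in WT and at 33.8, 2.12 and 0.720 in cTMs Depleted 1, 2 and 3, so the first depleted library kept more of it than the others. Mertk itself counted 75.7 and 89.4 in the Mertk-KO libraries, below the WT range of 130 to 147 but not apart from cTMs Depleted (75.5 to 125) or far below LxRαβ DKO (93.6 to 103), and the labels do not say which exons were removed. Nr1h3 and Nr1h2 were at 17.2% and 17.3% of the WT mean in LxRαβ DKO. Heart identity was clear in all libraries, with 6 cardiomyocyte genes such as Myh6 and Tnnt2 summing to 627954 to 813321 normalised counts. Since these are bulk tissues, fewer cells of a type and less RNA per cell cannot be told apart.

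A gene is said to have changed when its Benjamini-Hochberg adjusted p in limma, over all 13884 genes, was below 0.05, and fold changes are on the scale of log2(normalised count + 1). Few of the iron genes changed. In cTMs Depleted against WT, 1 of 9 changed (Trf, lower), where 0.238% of all genes did. In Mertk-KO against WT, 1 of 9 changed (Ireb2, lower), where 9.27% of all genes did, a share that puts a single call among 9 genes near the background. In LxRαβ DKO against WT, 0 of 9 changed by limma, 1 had an unadjusted p below 0.05 (Slc40a1), and 0.418% of all genes changed. These 3 comparisons share the WT libraries. The median log2 fold change of the 9 was -0.06, 0.20 and -0.03 in the same order, beside 0.00, -0.01 and 0.00 for all genes tested. Between cTMs Depleted and Mertk-KO, 2 of 9 changed (Trf and Ireb2; 21% of all genes), and between cTMs Depleted and LxRαβ DKO 2 of 9 changed (Trf and Hmox1; 3.24%). Between Mertk-KO and LxRαβ DKO, 0 of 9 changed by limma with 4 at an unadjusted p below 0.05, and 2.46% of all genes changed. Groups did not overlap for 5 of 9 genes in cTMs Depleted against Mertk-KO (45.4% of all genes) and for 5 of 9 in Mertk-KO against LxRαβ DKO (31.5% of all genes).

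**Figure D1:**
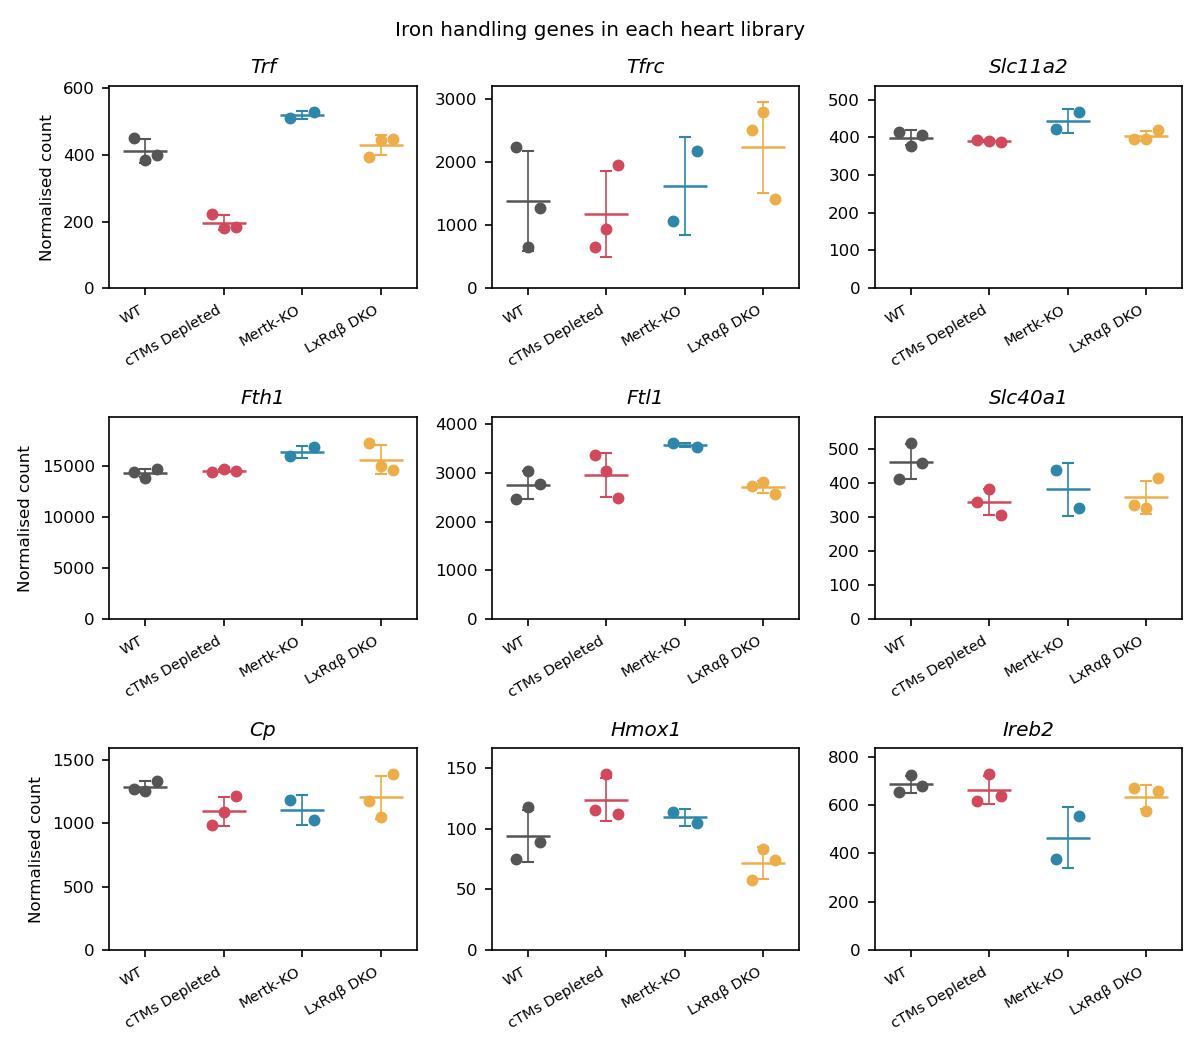
Normalised counts (vertical axes, each from 0) of the 9 iron handling genes in each of the 11 libraries, by group; points are libraries, horizontal lines group means and error bars 1 SD. Trf lies at 181 to 222 in the 3 cTMs Depleted libraries and at 384 or above in the other libraries, and Tfrc spreads from 647 to 2792 with every group wide.

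Transferrin was the iron gene that fell with macrophage depletion. Trf (ENSMUSG00000032554, protein coding, chr9:103204001-103230444, minus strand) counted 451, 384 and 400.1 in WT libraries 1 to 3 and 222, 181 and 185 in cTMs Depleted libraries 1 to 3. It counted 512 and 528 in Mertk-KO and 395.5, 446 and 448 in LxRαβ DKO. The 3 depleted libraries were the lowest of the 11 and did not overlap with any other group, and the first of them, which kept more Siglec1, was low as well. The mean of the depleted group (196 ± 22.6, SD, n = 3) was 47.6% of the WT mean (412 ± 34.9, SD, n = 3), a log2 fold change of -1.07 (SE 0.10, limma adjusted p = 0.00343). Groups failed to overlap for 3 of the 9 genes in this comparison (Trf, Slc40a1 and Cp, all lower), and for 16.7% of all genes tested.

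Trf was also lower in cTMs Depleted than in Mertk-KO (log2 fold change -1.41, SE 0.12, limma adjusted p = 0.000173) and than in LxRαβ DKO (-1.13, SE 0.10, limma adjusted p = 0.000195). Against WT it was 126% in Mertk-KO (limma adjusted p = 0.0843) and 104% in LxRαβ DKO (limma adjusted p = 0.858), and neither passed the test. In the TPM table the depleted libraries held 6.77, 8.36 and 10.5 TPM against 22.1, 21.4 and 17.4 in WT. These groups did not overlap there either, at 42.1% of the WT mean, yet the test on that table did not pass (log2 fold change -1.25, limma adjusted p = 0.117). In TPM, Trf stood further above WT than in normalised counts, at 169% in Mertk-KO (limma adjusted p = 0.1275) and 134% in LxRαβ DKO (limma adjusted p = 0.580). Neither of these passed.

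The Trf locus shares reads with a neighbour, so its level carries that uncertainty. The gene model Gm20425 (chr9:103190208-103230307, minus strand) has 69.6% of its exon bases in exons of Trf and 29.3% in exons of the next gene, Srprb. It counted 39.0, 94.1 and 41.6 in WT and 23.2, 45.6 and 84.4 in cTMs Depleted. With both rows added, the locus counted 490.0, 478 and 442 in WT against 245, 226 and 269 in the depleted group. The sums did not overlap either, at 52.5% of the WT mean (log2 fold change -0.93, SE 0.10, limma adjusted p = 0.00749).

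Markers of some other cells were lower along with Trf, and their part in its change was not tested. The summed count of 7 resident macrophage genes was 1594 to 1735 in WT and 1113, 873 and 240 in cTMs Depleted 1, 2 and 3. The sum of 9 pan-macrophage genes was 3384 to 4071 in WT and 1218 to 2566 in cTMs Depleted. The sum of 6 adipocyte genes was 79.7 to 169 in WT and 20.9 to 34.1 in the depleted group, with 73.3 and 135 in Mertk-KO and 116 to 319 in LxRαβ DKO. The sum of 6 red cell genes was 4996 to 8512 in WT and 3304 to 4862 in cTMs Depleted. That of 6 endothelial genes was 10627 to 11855 in WT and 9461 to 10278 in cTMs Depleted, again without overlap. All 4 tested atrial genes were lower (median log2 fold change -0.98), though their list's sums overlapped (3159 to 6232 against 3465 to 25595 in WT). Cardiomyocyte genes were lower in 4 of 6 (median -0.03) and immediate early and heat shock genes in 6 of 11 (median -0.26). In contrast, 3 of 3 tested monocyte genes and 4 of 5 mesothelial and lymphatic genes were higher than in WT. Fibroblast genes were split, with 3 higher and 3 lower. Of the marker lists, only that of resident macrophages held called genes (2, both lower). The 5 hepatocyte genes, which mark the main source of plasma transferrin, summed to 4.32 to 13.3 in all libraries and none of them reached the minimum for testing.

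**Figure D2:**
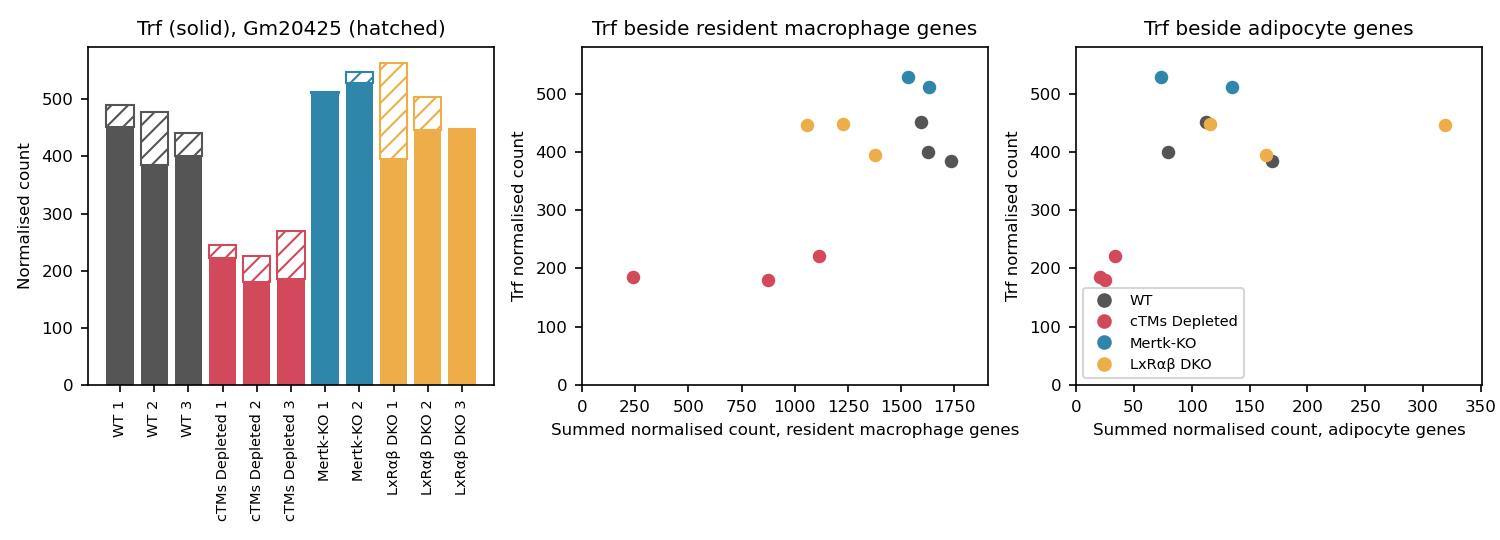
Left, normalised counts of Trf (solid bars) with those of the overlapping model Gm20425 on top (hatched) in each library; middle and right, Trf against the summed normalised count of 7 resident macrophage genes and of 6 adipocyte genes, 1 point per library. The depleted libraries are low in Trf at macrophage sums from 240 to 1113 and sit together at adipocyte sums of 20.9 to 34.1.

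The transferrin receptor, through which cells take up transferrin iron, varied widely between libraries of the same group. Tfrc (ENSMUSG00000022797, chr16:32608920-32632794, plus strand) counted 2237, 647 and 1268 in WT, 649, 947 and 1954 in cTMs Depleted, 1070 and 2175 in Mertk-KO and 2508, 2792 and 1420 in LxRαβ DKO. All groups overlapped. The coefficient of variation within groups was 46.4%, beside a median of 12.1% over all genes tested, and 96.6% of those genes varied less. Against WT the log2 fold change was -0.20 (SE 0.47) in cTMs Depleted, 0.32 (SE 0.53) in Mertk-KO and 0.81 (SE 0.47) in LxRαβ DKO, and none of the 3 passed the test (limma adjusted p from 0.534 to 0.993). With this spread, changes of about the size of these errors were not detectable.

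Slc11a2 (DMT1; chr15:100387898-100425072, minus strand), which releases endosomal iron to the cytosol, varied least of the 9 within groups in normalised counts, though not in TPM. It counted 377 to 414 in WT, 389 to 394 in cTMs Depleted, 421 and 466 in Mertk-KO and 396 to 419 in LxRαβ DKO. Its coefficient of variation within groups was 4.30%, and 2.60% of all genes tested varied less. In TPM it was 14.0%, above that of Fth1 (5.03%), Ftl1 (10.7%) and Ireb2 (11.02%). The Mertk-KO libraries lay above all WT libraries, but the log2 fold change of 0.15 (SE 0.09) did not pass the test (limma adjusted p = 0.288).

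Neither ferritin gene passed the test in a comparison with WT. Fth1 (chr19:9980598-9985098, plus strand), whose subunit oxidises iron for storage, counted 14363, 13838 and 14701 in WT and 14368, 14733 and 14546 in cTMs Depleted. It counted 15987 and 16806 in Mertk-KO and 17205, 15013 and 14567 in LxRαβ DKO. The depleted libraries overlapped with WT (log2 fold change 0.03, SE 0.08), while both Mertk-KO libraries lay above WT (0.20, SE 0.09, limma adjusted p = 0.158). Ftl1 (chr7:45457944-45459884, minus strand), whose subunit helps to form the iron core, counted 2471, 3045 and 2760 in WT and 3367, 3030 and 2477 in cTMs Depleted. It counted 3603 and 3536 in Mertk-KO and 2728, 2813 and 2565 in LxRαβ DKO. Both Mertk-KO libraries again lay above all WT libraries, at 129% of the WT mean, and its log2 fold change of 0.38 (SE 0.12) fell short of the threshold (limma adjusted p = 0.0699). It passed when cTMs Depleted 3 was left out of the shared fit (limma adjusted p = 0.0482). In Mertk-KO against WT, groups did not overlap for 6 of the 9 genes, where 42.6% of all genes tested did not.

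Neither gene of iron export passed the test against WT. Slc40a1 (ferroportin; chr1:45908068-45926523, minus strand) counted 413, 516 and 458 in WT, 345, 383 and 304 in cTMs Depleted, 437 and 327 in Mertk-KO and 335, 326 and 414 in LxRαβ DKO. The depleted libraries lay below all WT libraries, the Mertk-KO libraries overlapped with them, and LxRαβ DKO 3 passed the lowest WT library by a little. The log2 fold change against WT was -0.43 (SE 0.14, limma adjusted p = 0.417) in cTMs Depleted, -0.29 (SE 0.16, limma adjusted p = 0.257) in Mertk-KO and -0.37 (SE 0.14, limma adjusted p = 0.370) in LxRαβ DKO. With a weight for each library, the LxRαβ DKO difference passed (-0.42, limma adjusted p = 0.0434). Groups overlapped for all 9 genes in LxRαβ DKO against WT, where 22.7% of all genes tested did not overlap.

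In normalised counts, the most Tfrc and the least Slc40a1 of a group fell in the same library. In 4 of 4 groups the library with the most Tfrc was the one with the least Slc40a1: WT 1, cTMs Depleted 3, Mertk-KO 2 and LxRαβ DKO 2. On the TPM scale this held in 3 of 4 groups: in LxRαβ DKO library 2 had the most Tfrc (51.0 TPM) and library 1 the least Slc40a1 (8.00 TPM). This pairing was chosen after the values were seen and is given as a description.

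**Figure D3:**
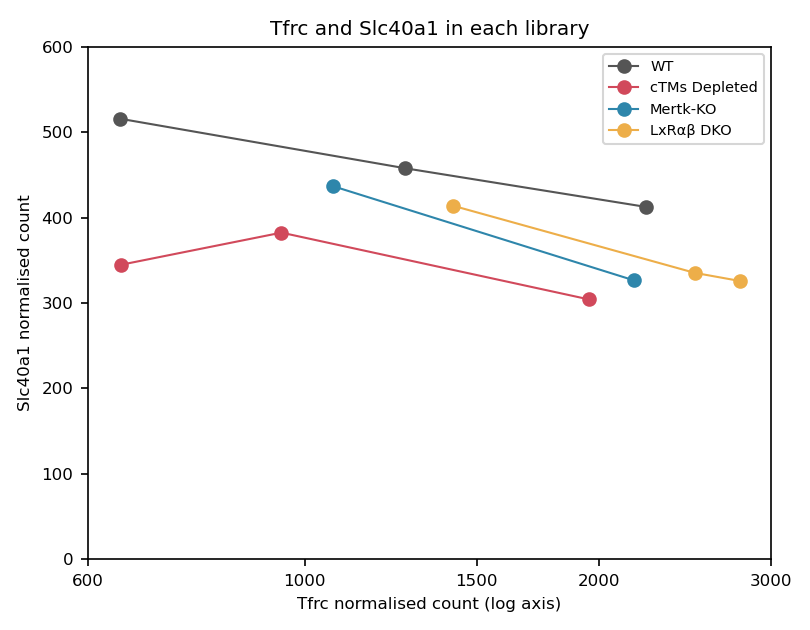
Slc40a1 normalised count (vertical axis, from 0) against Tfrc normalised count (horizontal log axis), 1 point per library, with lines joining the libraries of a group in order of Tfrc. The library at the right end of each line, with 1954 to 2792 Tfrc counts, is also the lowest of its group in Slc40a1, at 304 to 413.

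Cp (ceruloplasmin; chr3:19957054-20009145, plus strand), which oxidises iron as it leaves the cell, counted 1269, 1253 and 1334 in WT, 985, 1085 and 1214 in cTMs Depleted, 1184 and 1021 in Mertk-KO and 1173, 1051 and 1384 in LxRαβ DKO. The depleted and the Mertk-KO libraries lay below all WT libraries. The log2 fold changes were -0.24 (SE 0.11, limma adjusted p = 0.663) and -0.22 (SE 0.12, limma adjusted p = 0.251), and neither passed. Cp overlaps Hps3 on the opposite strand, which counted 156 to 239 over the libraries. The sources used here do not say whether reads were counted by strand.

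Hmox1, which frees iron from haem, differed between the depleted hearts and those without liver X receptors. The gene (chr8:75093621-75100589, plus strand) counted 75.5, 118 and 89.1 in WT, 115, 145 and 112 in cTMs Depleted, 114 and 105 in Mertk-KO and 57.4, 83.3 and 74.2 in LxRαβ DKO. The depleted libraries lay above all LxRαβ DKO libraries, and both groups overlapped with WT. Hmox1 was higher in cTMs Depleted than in LxRαβ DKO by a log2 fold change of 0.79 (SE 0.19, limma adjusted p = 0.0472). That call was lost in 10 of 25 alternatives, with limma adjusted p up to 0.167, among them leaving out any 1 library of either group. Against WT the log2 fold change was 0.41 (SE 0.19, limma adjusted p = 0.663) in cTMs Depleted and -0.38 (SE 0.19, limma adjusted p = 0.471) in LxRαβ DKO, and neither passed. The resident macrophage sum was 240 to 1113 in cTMs Depleted and 1056 to 1379 in LxRαβ DKO, and these ranges overlapped. The pan-macrophage sum was lower in cTMs Depleted (1218 to 2566 against 2842 to 3810). That of 5 monocyte genes (Ccr2, Ly6c2, Plac8, Chil3 and Fn1) was higher there (1057 to 1477 against 653 to 919). Of these 5, only 3 reached the minimum for testing, and the sum does not show which genes carried it. The part of cell makeup in the Hmox1 difference was not tested. Groups did not overlap for 3 of the 9 genes in this comparison and for 28.3% of all genes tested.

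**Figure D4:**
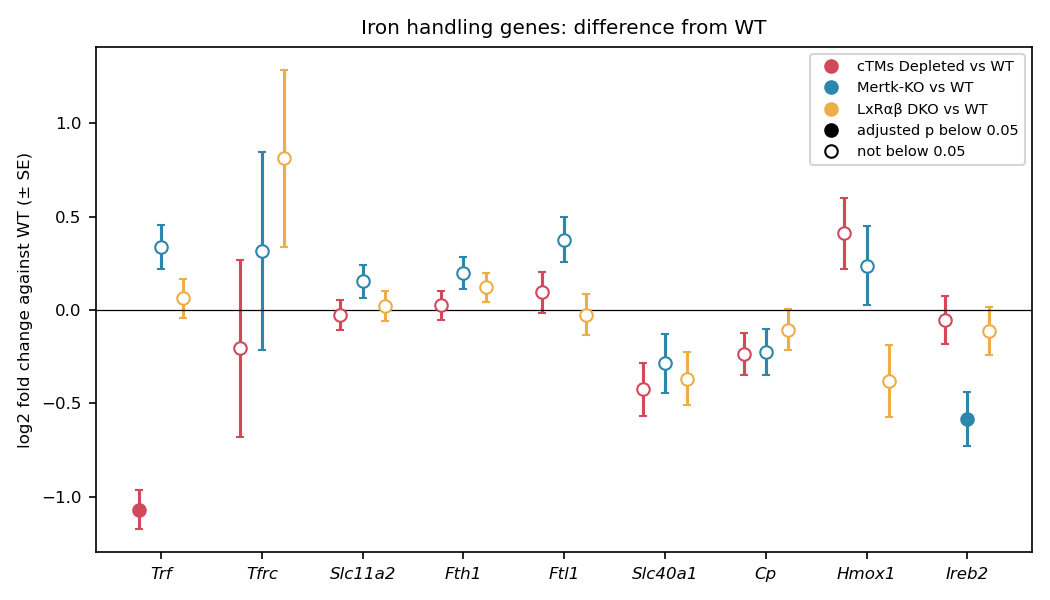
log2 fold change against WT (vertical axis) of each iron handling gene in cTMs Depleted, Mertk-KO and LxRαβ DKO hearts, with bars of 1 SE; filled points have a limma adjusted p below 0.05. Trf in cTMs Depleted (-1.07) and Ireb2 in Mertk-KO (-0.59) are the filled points, and the bars of Tfrc are the longest.

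The iron sensor Ireb2 was lower in Mertk-KO, in a comparison where length and base composition of the transcripts moved with the libraries. Ireb2 (IRP2; chr9:54863789-54912530, plus strand) counted 654, 724 and 678 in WT, 618, 726 and 637.5 in cTMs Depleted, 376 and 553 in Mertk-KO and 669.7, 577 and 656 in LxRαβ DKO. The Mertk-KO libraries were the lowest of the 11 and lay below all others, at 67.7% of the WT mean. The log2 fold change against WT was -0.59 (SE 0.14, limma adjusted p = 0.0323), and that of cTMs Depleted against Mertk-KO was 0.53 (SE 0.14, limma adjusted p = 0.0251). The longest Ireb2 transcript has 5770 bases with 39.0% GC, where the median over all genes tested was 3381 bases.

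Each library's log2 distance from the mean of WT was correlated with transcript length over genes, giving values of -0.26 and -0.50 for Mertk-KO (Spearman's rho). It was -0.25, -0.37 and -0.14 in LxRαβ DKO and -0.04, 0.22 and 0.06 in cTMs Depleted. Genes are not independent replicates, and this is a description of the libraries. With the trend on length and GC removed from each library, an alternative added after the data were seen, Ireb2 was no longer called in Mertk-KO against WT (-0.13, limma adjusted p = 0.400) or between cTMs Depleted and Mertk-KO (0.01, limma adjusted p = 0.970). The same step left Trf in cTMs Depleted below LxRαβ DKO (-1.05, limma adjusted p = 0.000196). It moved Ftl1 in Mertk-KO from 0.38 to 0.09 and Cp from -0.22 to 0.07, both short of the test before and after. The call on Ireb2 was also lost in Mertk-KO without Mertk-KO 1 (-0.31, limma adjusted p = 0.126), without any 1 of the WT libraries (0.0744 to 0.0985) and without LxRαβ DKO 1 (0.0516). The sum of 11 immediate early and heat shock genes was 9728 and 6942 in Mertk-KO, above the WT range of 1858 to 5441. The pan-macrophage sum was 4447 and 6530 there, above the WT range of 3384 to 4071, with 8 of its 9 genes higher than in WT and none called. The part of either in the Mertk-KO results was not tested.

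**Figure D5:**
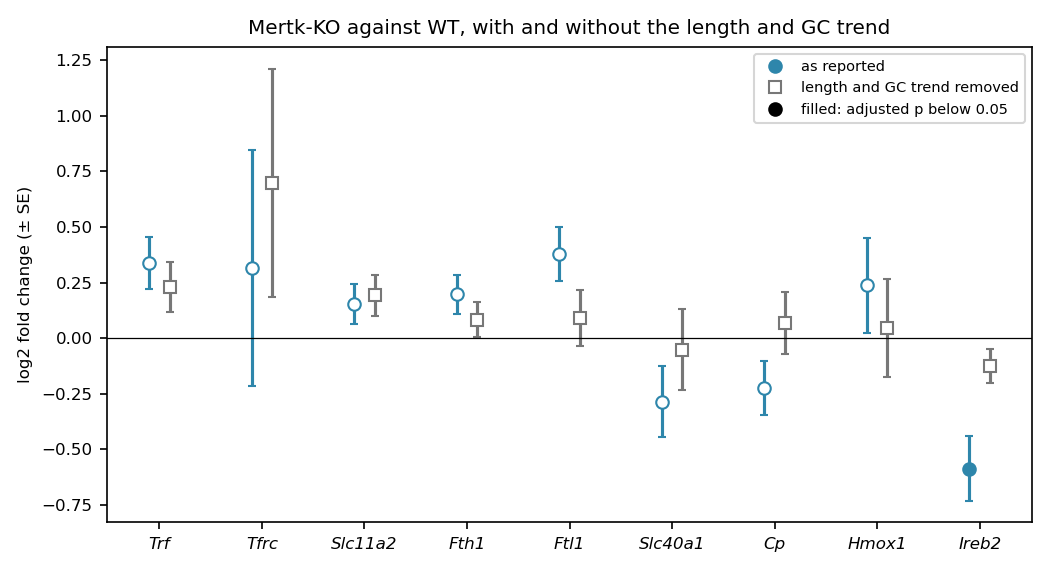
log2 fold change of Mertk-KO against WT (vertical axis, bars of 1 SE) for each iron handling gene as reported (circles) and with each library's trend on transcript length and GC removed (squares); filled symbols have a limma adjusted p below 0.05. Ireb2 moves from -0.59 to -0.13 and Ftl1 from 0.38 to 0.09.

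The genes whose pattern over the 11 libraries was most like each member were listed by Pearson's r of log2(normalised count + 1), with no test, and libraries of 1 group share their group's level. Nearest to Trf were Creb3l1 (r = 0.97), Apln (0.96), the gene of the peptide hormone apelin, and Pla2g2d (0.96), a secreted phospholipase. Apln counted 255 to 287 in WT and 137, 127 and 87.8 in cTMs Depleted. Within groups its r with Trf was 0.26, so most of the likeness lay between groups. Nearest to Tfrc were Rgs2 (r = 0.89), Inafm1 (0.89) and Tsc22d1 (0.87), with 0.87, 0.88 and 0.89 within groups.

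Among the nearest to Fth1 were Grk2 (0.93) and Ppp1ca (0.92), both on chromosome 19, as Fth1 is. For Ftl1 they were Crcp, Gsto1 and Cdc42 (0.88 to 0.91), and for Slc11a2 Gtf3c5, Pak4 and Stx18 (0.90 to 0.91). For Slc40a1 they were Rcan3, Fastkd1 and Colgalt2 (0.85 to 0.90), for Cp Thap12, Clmn and Nlrp10 (0.88 to 0.89) and for Hmox1 Anxa7, Hs3st1 and Mlip (0.87 to 0.92). Ireb2 had the closest likeness of all 9, with Dcp2, Zfc3h1 and Sp3 (0.98 to 0.99). In the Mertk-KO libraries, where Ireb2 was low, Dcp2 counted 161 and 282, below its WT range of 364 to 382.

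Around the 9, 66 other gene names of the pathway were listed, with hemojuvelin under both Hfe2 and Hjv, and 59 genes were tested. In cTMs Depleted against WT 1 of these fell and 0 rose by limma, in Mertk-KO 4 rose and 2 fell, and in LxRαβ DKO 0 changed by limma, with 7 at an unadjusted p below 0.05. These are 1.69% and 10.2% of the 59 in cTMs Depleted and Mertk-KO, beside 0.238% and 9.27% of all genes. The gene that fell with depletion was Cd163, the macrophage receptor that takes up haemoglobin bound to haptoglobin. It counted 225, 206 and 239 in WT and 36.6, 26.2 and 7.89 in cTMs Depleted, a log2 fold change of -3.42 (SE 0.39, limma adjusted p = 0.00749). The call was lost without WT 3 (-3.37, limma adjusted p = 0.0548). Cd163 is itself among the 7 resident macrophage genes. It was the 1 of 9 tested genes of haem and haemoglobin clearance that changed there.

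In Mertk-KO the genes that rose were Snx3, which recycles the transferrin receptor (1413 and 1395 against 1053 to 1179 in WT; log2 fold change 0.33, limma adjusted p = 0.0279), the constitutive haem oxygenase Hmox2 (0.36, limma adjusted p = 0.0441) and the iron-sulphur cluster genes Iscu and Nfs1. Iscu, the scaffold on which clusters are built, counted 1054 and 1193 against 790.4 to 892 (0.42, limma adjusted p = 0.0275). Nfs1, which supplies the sulphur, counted 1302 and 1335 against 1030 to 1071 (0.33, limma adjusted p = 0.0320). Of 10 cluster assembly genes, 9 lay above WT in Mertk-KO with a median log2 fold change of 0.25, beside -0.01 over all genes. With the length and GC trend removed, none of the 4 genes that rose was called in Mertk-KO. Of 25 alternatives, Snx3, Iscu and Nfs1 each lost their call in 9 and Hmox2 in 17, among them leaving out any 1 of the WT libraries.

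Of the tested genes of hepcidin and its control, Hamp alone changed in Mertk-KO. Hamp counted 10.6, 51.1 and 30.2 in WT, 5.63, 8.49 and 25.1 in cTMs Depleted and 12.97, 8.29 and 1.47 in LxRαβ DKO, and had no reads in either Mertk-KO library. It fell in Mertk-KO against WT (limma adjusted p = 0.0140), with the Mertk-KO floor at 3.98 and 3.23 counts. It was the 1 of 9 tested genes of its list to change, where 9.27% of all genes did. That share puts a single call among 9 genes near the background. The call held with the length and GC trend removed (limma adjusted p = 0.0148). It was lost in 4 of 24 alternatives: without WT 2 (0.0557), without WT 3 (0.0601), in the fit of only the 2 groups (0.0797) and with weights per library (0.103). The sum of 5 atrial genes, which moves with the part of the heart that entered a library, stood at 3002 and 1675 for the Mertk-KO libraries, below the WT range of 3465 to 25595, and its part in this result was not tested. The near-identical copy Hamp2 stayed at or below 1.51 counts in all libraries.

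The other lists held no gene that changed against WT. The smallest p-values were those of Pcbp1 (0.31 in Mertk-KO, limma adjusted p = 0.0645) and Pcbp2 (0.10 in cTMs Depleted, 0.859), which load ferritin. Heph, the other ferroxidase of export, was at -0.56 in cTMs Depleted (limma adjusted p = 0.659). The iron sensing genes Fbxl5 (-0.13, limma adjusted p = 0.615) and Aco1 (-0.11, 0.730) were nearest to the threshold in LxRαβ DKO. Among other transcripts with an iron-responsive element, Cdc42bpa came nearest, in Mertk-KO (-0.28, limma adjusted p = 0.0915). Nqo1, a target of Nrf2, was at 0.36 in cTMs Depleted (limma adjusted p = 0.580).

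Bach1, the haem-binding repressor of Hmox1, counted 477, 547 and 523 in WT, 608, 585 and 561 in cTMs Depleted, 394 and 377 in Mertk-KO and 376, 319 and 436 in LxRαβ DKO. The depleted libraries were the highest of the 11 and the Mertk-KO and LxRαβ DKO libraries the lowest. Against WT the difference in LxRαβ DKO did not pass (-0.46, limma adjusted p = 0.150). Bach1 was higher in cTMs Depleted than in LxRαβ DKO (0.64, limma adjusted p = 0.00913) and than in Mertk-KO (0.60, limma adjusted p = 0.00898), comparisons named after their values were seen. With the length and GC trend removed, the call against LxRαβ DKO held (limma adjusted p = 0.0120) and that against Mertk-KO was lost (0.0628). Between cTMs Depleted and LxRαβ DKO, Bach1 and Hmox1 were thus both the higher in the depleted group.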

How the data were processed

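The 9 genes and all gene lists were chosen with earlier results of these data known. RNA was extracted with Trizol and amplified with a single-cell kit before library preparation, per the labels' protocols. CASAVA 1.8.2, cutadapt, RSEM 1.2.20, kallisto 0.43.1 and the build GRCm38 are named without roles, per the submitters' processing notes. The authors deposited 2 tables of signal per gene: the first holds estimated reads plus 0.5 scaled by an effective library size, as its values show, and the second a rescaled TPM. Its columns sum to 916500 to 1157287. From the first, normalised counts were recovered as estimated reads over the effective size times the mean size; 57.2 to 61.5% of low values were within 0.01 of a whole read, so no count model was used.

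Genes whose mean reached 10 normalised counts were tested with limma 3.58.1 (R 4.3.3; trend, all 4 groups, log2 with pseudocount 1, two-sided, Benjamini-Hochberg). The fit was tested on simulated data. Named beside the 9 genes were pathway genes that passed against WT, otherwise the 2 with the smallest p in a list, and the 3 genes most like each of the 9; a few of these are not reported here. Alternatives changed the pseudocount, minimum, table, scaling, groups in the fit, weights, block and libraries; removal of length and GC trends, voom weights, the per-million pseudocount, no trend and the sum of Trf with Gm20425 were added after the data were seen.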

Additional observations from a re-analysis of the deposited data

How the results depend on the processing

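Trf in cTMs Depleted against WT kept its direction in 26 of 26 alternatives (-1.25 to -0.93) and lost its call in 1, the TPM table. Of the other called members, Ireb2 in Mertk-KO against WT lost its call in 12 of 25, Ireb2 in cTMs Depleted against Mertk-KO in 8 of 25 and Hmox1 in 10 of 25, with no change of direction; where no value is named, the cause was not tested. The iron genes called in cTMs Depleted against WT fell from 1 to 0 in the TPM table. In Mertk-KO against WT they fell from 1 to 0 with no minimum, in the TPM table, in a fit of only the 2 groups, with weights per library, with the replicate block, with the length and GC trend removed and with no trend; in LxRαβ DKO against WT they rose from 0 to 1 with weights per library. In cTMs Depleted against Mertk-KO they fell from 2 to 1 in the TPM table, the 2-group fit, weights per library, the length and GC removal and no trend, and in cTMs Depleted against LxRαβ DKO from 2 to 1 with no minimum, in the TPM table and with no trend.

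Over all genes, cTMs Depleted against WT called 33 genes, and 17 with no minimum, 7 in the TPM table, 66 in the 2-group fit, 219 with weights and 18 with no trend. Mertk-KO against WT called 1287, and in the same order 597, 363, 1, 12 and 335, with 294 after the length and GC removal (189 higher, 105 lower, against 469 and 818). LxRαβ DKO against WT called 58, and 124 in the 2-group fit and 593 with weights. cTMs Depleted against Mertk-KO called 2911, and 1556 in the TPM table, 146 in the 2-group fit, 438 with weights and 1326 after the length and GC removal (488 higher, 838 lower, against 1607 and 1304). cTMs Depleted against LxRαβ DKO called 450, and 278 with no minimum, 219 in the TPM table, 2043 with weights and 226 with no trend. Mertk-KO against LxRαβ DKO called 341, and 150, 88, 20, 19 and 88 for no minimum, TPM, 2 groups, weights and no trend, with 162 for voom weights.

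Leaving out 1 library gave 3 to 84, 70 to 2399, 31 to 118, 1378 to 3237, 135 to 1229 and 72 to 2168 genes in the order above, and 1 to 1, 0 to 2, 0 to 0, 1 to 2, 1 to 2 and 0 to 1 iron genes. Where this left 1 Mertk-KO library, that library is assumed to vary like the other groups.

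Reversals touched values that had not passed the test. Tfrc in cTMs Depleted against WT was 0.068 with weights and -0.66 to 0.23 over the leave-outs, and in Mertk-KO -0.19 to 0.83. Slc11a2 was 0.19, -0.053 and -0.28 in the TPM table for the 3 comparisons with WT, with leave-outs of -0.067 to 0.000 in cTMs Depleted and -0.021 to 0.046 in LxRαβ DKO. Ftl1 ran from -0.005 to 0.22 in cTMs Depleted and from -0.10 to 0.048 in LxRαβ DKO. Cp in Mertk-KO was 0.066 in the TPM table and 0.068 after the length and GC removal, which also gave 0.008 for Ireb2 in LxRαβ DKO and 0.29 for Cdc42bpa in Mertk-KO.

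Same-numbered libraries were no more alike than others: over 15 same-numbered pairs the correlation of deviations from group means ran from -0.09 to 0.11, with 2 over 0.1. Over 30 differently numbered pairs it ran from -0.12 to 0.11, also with 2 over 0.1. Since the means rest on 2 or 3 libraries, these values cannot decide whether the numbers mark a pairing. With the replicate block, Mertk-KO against WT called 391 genes and 0 iron genes, and Mertk-KO against LxRαβ DKO 119; counts in the other comparisons stayed within 1.5 times.

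With 2 or 3 libraries a group, Tfrc could not have shown a change as small as its error, and Hmox1, at 57.4 to 145 counts, carries more counting error than ferritin.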

Other observations

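The direct comparison of cTMs Depleted with Mertk-KO, named here after its values were seen, called 15 of the 59 tested pathway genes by limma, 5 higher and 10 lower in cTMs Depleted, or 25.4% where 21% of all genes were called. Hfe2 (hemojuvelin), from the list of hepcidin and its control, is also expressed by skeletal and heart muscle. It counted 2010, 2143 and 2495 in cTMs Depleted and 3259 and 3031 in Mertk-KO (log2 fold change -0.51, SE 0.10, limma adjusted p = 0.00791). Slc48a1, which moves haem out of endosomes, counted 719.5, 689 and 720.2 against 953 and 939.5 (-0.41, SE 0.09, limma adjusted p = 0.0120). Glrx5, which carries iron-sulphur clusters in mitochondria, counted 669, 529.6 and 709 against 891 and 918 (-0.52, SE 0.12, limma adjusted p = 0.0141). The groups did not overlap for these 3 genes. With the length and GC trend removed, 5 of the 15 genes were still called (Cd163, Cybrd1, Glrx5, Hamp and Isca2), and Hfe2 (limma adjusted p = 0.0632) and Slc48a1 (0.0641) were not.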
